A study of Homo sapiens with 36 samples.

Results

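Neurons carrying a knockout (KO) of RAI1 were compared with wild-type (WT) neurons at day 7 of differentiation, with 4 libraries per genotype. These 8 libraries were taken by genotype and day as the labels give them, out of 36 libraries in the series, and no measured value entered the choice. All libraries came from H9, an established human embryonic stem cell line, in which doxycycline-dependent NGN2 expression turned the cells into neurons, called iNeurons in the labels. The compared groups were WT iNeurons and RAI1 Knockout iNeurons, both at day 7, both grown in Neurobasal-A medium with GlutaMAX, B27, GDNF, NT3 and CultureOne, and both under the same batch label. Beside them stand the heterozygous mutant (HET) neurons of day 7 and the KO and WT cells of days 0 and 3, with 4 biological replicates each. The labels describe neither the edit nor how many edited clones stood behind the KO line, so a difference between the lines and a difference caused by RAI1 cannot be told apart here. Total RNA depleted of ribosomal RNA was sequenced, so the values describe whole cultures.

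RAI1 is a nuclear protein that binds nucleosomes together with partner proteins such as PHF14 and TCF20, and loss of 1 copy of its gene causes Smith-Magenis syndrome, a neurodevelopmental disorder. NGN2, encoded by NEUROG2, is a proneural transcription factor: it switches on further factors such as NEUROD1, cells leave the division cycle, Notch signalling and the progenitor programme decline, and genes for the cytoskeleton, synapse and ion channels of neurons come on. In such cultures the transient proneural factors therefore mark early cells and the channel and receptor genes mark later ones.

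The deposited counts of day 7 summed to 33257630 to 47918818 per library. Levels are given below as counts-per-million of a library's gene total (CPM); they are not scaled by gene length and are not compared between genes. The 4 KO libraries resembled each other, with correlations of log2 CPM between 0.981 and 0.994. The WT libraries were more spread: WT replicate 1 correlated with the other WT libraries at 0.951 to 0.970, and those with each other at 0.983 to 0.987. Replicate 1 was the highest WT library for 19 of 20 proliferation genes and the lowest for 18 of 20 pan-neuronal genes, so the counts below are given also without it; of 160 named genes that passed, 149 did so in the same direction without it, and 11 did not, RAI1, TCF20, HOXB9, DCX, SLC5A7 and CDKN1A among them. Small structural RNAs such as 7SL and 7SK took 20.4 ± 5.10% of the WT counts and 12.2 ± 2.74% of the KO counts (SD, n = 4; exact permutation test, two-sided p = 0.0571, where 4 against 4 cannot go below 0.0286).

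RAI1 itself (chr17:17681473-17811453, GRCh38) was not lower in KO. It was counted at 80.8, 86.5, 85.3 and 61.0 CPM in KO replicates 1 to 4 and at 34.5, 51.6, 40.7 and 66.7 CPM in WT replicates 1 to 4. The highest WT library lay above the lowest KO library, and the KO mean was the higher one, at 78.4 ± 11.9 against 48.4 ± 14.1 CPM (SD, n = 4; exact permutation test, two-sided p = 0.0571). The edgeR fold change was 0.69 on the log2 scale (SE 0.22, edgeR adjusted p = 0.0296). The call was lost without any one of WT replicates 1 to 3 or KO replicates 1 to 3 (edgeR adjusted p from 0.0690 to 0.0830, and 0.0818 without WT replicate 1), with the share of small structural RNAs as a covariate (0.0905), with a replicate block (0.0533) and with limma on log2(TPM + 1) (0.349). Gene counts can stay level when an edit stops the protein, so they do not check the genotype label, and reads of overlapping SREBF1 and SMCR5 cannot be told apart without a stated strand setting.

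Of the 21714 genes that could be tested, 7070 (32.6%) had an adjusted p under 0.05 in edgeR's quasi-likelihood test of KO against WT, which is the rule for every gene said below to be higher or lower. In KO, 3683 (17%) were higher and 3387 (15.6%) were lower, and 4778 of the 7070 differed at least 2-fold. Without WT replicate 1, 5701 genes passed, 3028 of them higher, and 5423 of the 7070 passed in the same direction. Shares of a gene list below are to be read against these percentages. The median log2 fold change over all tested genes was -0.04. Lower genes included most of the cell division and ribosomal protein lists, higher genes included more than 1 in 2 of the synapse, receptor and channel genes tested, and a further set was silent in WT. With limma on log2(TPM + 1) 1007 genes passed in all, and list counts were smaller on that scale, with 8 of 20 proliferation genes lower and 7 of 29 presynaptic genes higher.

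**Figure D1:**
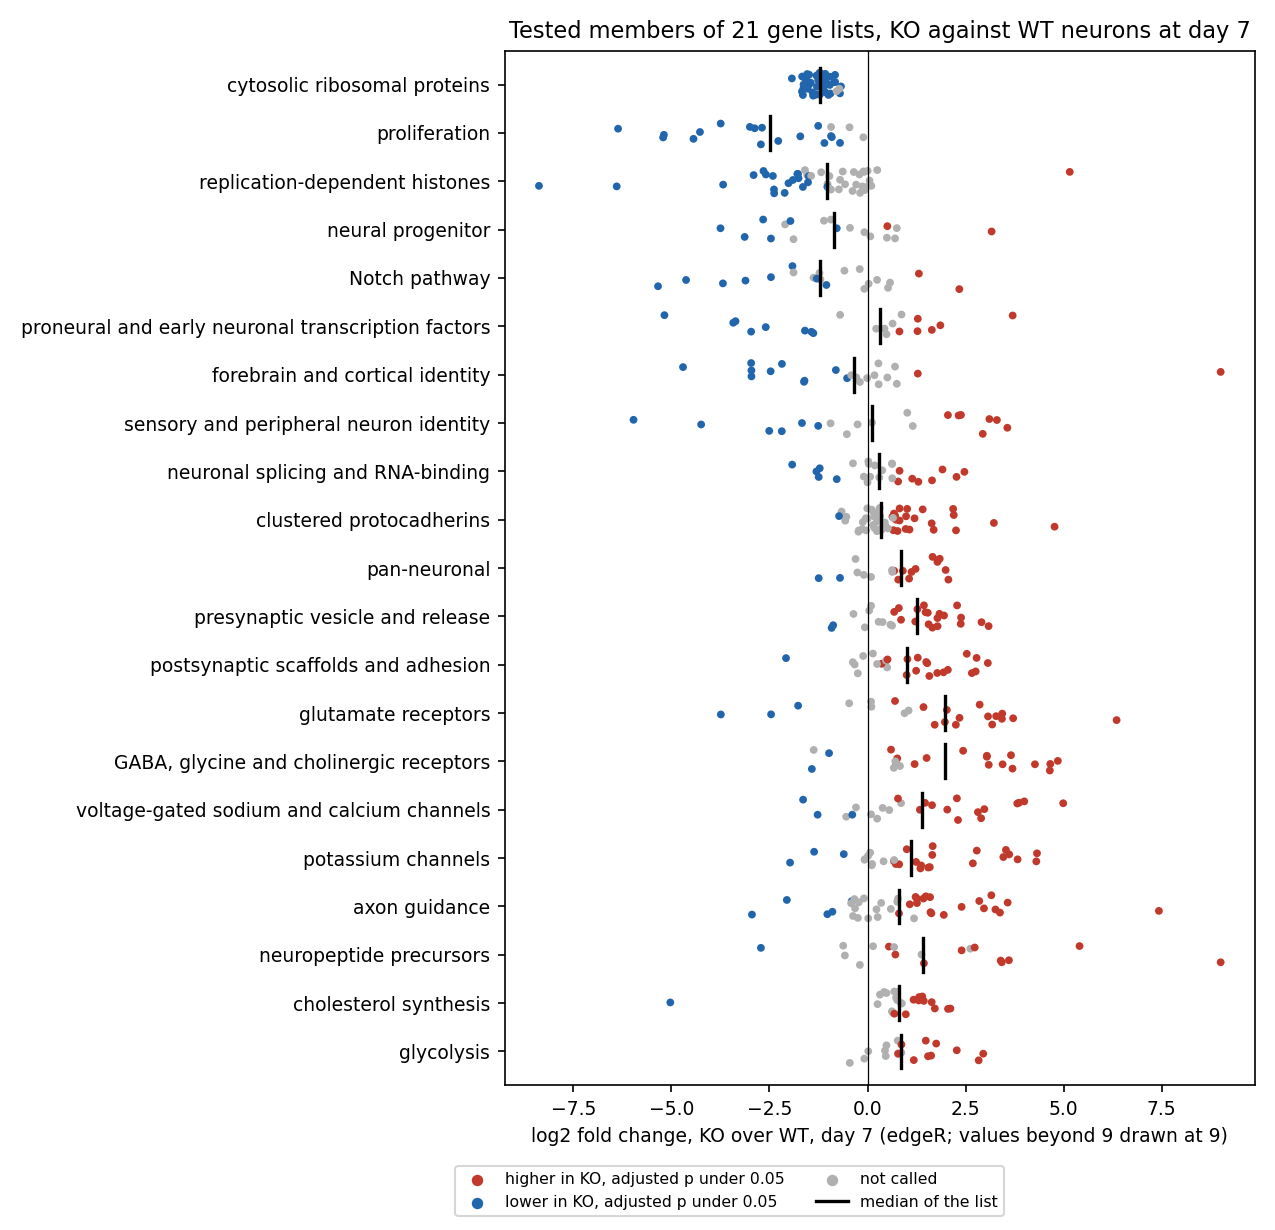
Log2 fold changes of KO over WT at day 7 (horizontal axis, edgeR) for the tested members of 21 gene lists (vertical axis), with 1 point per gene, red where higher, blue where lower, grey where the test was not passed, and a black bar at each list's median. All 44 coloured ribosomal protein points lie left of 0, while most coloured points of the synapse, receptor and channel lists lie right of it.

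Some markers of other cells differed between the genotypes. Of 5 tested pluripotency markers, 3 were higher and 1 was lower in KO, and the sum of the list ran from 306 to 358 CPM in KO and from 98.9 to 135 CPM in WT. In KO most of that sum was LIN28A, an RNA-binding protein that blocks let-7 microRNAs, while the defining markers POU5F1, NANOG, TDGF1, L1TD1, ZFP42, UTF1 and ESRG never exceeded 8 counts in a library. LIN28A was read at 277, 219.8, 210.3 and 213 CPM in KO and 11.8, 26.9, 22.6 and 26.8 CPM in WT. Every KO library lay far above every WT library (3.38 on the log2 scale, SE 0.31, edgeR adjusted p = 1.52e-05). Neural crest and Schwann markers summed to 317 to 641 CPM in KO and 88.9 to 173 CPM in WT, with 4 of 11 higher and 3 lower. Among them NGFR, the low-affinity neurotrophin receptor, was higher (479 ± 138 against 91.8 ± 33.1 CPM, SD, n = 4) and SNAI2, a crest transcription factor, was lower (0.789 ± 0.180 against 14.2 ± 7.20 CPM). Mesenchymal markers summed to 83.2 to 101 CPM in KO and 91.0 to 172 CPM in WT (1 of 10 higher, 5 lower), and glial markers to 446 to 509 CPM in KO and 232 to 432 CPM in WT (3 of 11 higher, 4 lower). Most of the glial sum in KO was SLC1A2, which was higher, at a mean of 322.2 against 82.02 CPM (edgeR adjusted p = 0.000116). Most of the mesenchymal sum in KO was THY1, the 1 higher gene of that list. It had a mean of 65.01 CPM in KO (2.43 on the log2 scale, edgeR adjusted p = 0.000554). Among the lower genes, COL1A1, a fibrillar collagen, fell to 0.380 ± 0.278 CPM from 20.9 ± 4.75 CPM. GJA1, a gap-junction protein of astrocytes and progenitors, fell to 0.417 ± 0.111 from 15.6 ± 5.88 CPM. Epithelial markers (13.2 to 22.5 CPM in KO, 7.83 to 19.5 in WT) and endothelial and blood markers (0.988 to 2.23 CPM in KO, 2.69 to 5.04 in WT) had low sums, and TBXT, GSC, FOXA2 and HBE1 were at 0 in all 8 libraries. In bulk RNA, fewer cells of a type and less RNA per cell cannot be told apart, and the part that these cells had in the differences below was not tested.

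Genes of cell division were lower in KO neurons. Of 20 proliferation genes 17 fell and 0 rose, with a median log2 fold change of -2.48, and the same counts, 17 and 0, came without WT replicate 1, with a median of -1.85. CDK1, the kinase that starts mitosis, stood at 0.470, 0.472, 0.309 and 0.511 CPM in KO and at 26.1, 7.37, 2.69 and 2.55 CPM in WT. The KO libraries held a uniform trace of it, while the WT libraries were widely spread with replicate 1 at the top. Its log2 fold change was -4.43 (SE 0.73, edgeR adjusted p = 0.000748), and -3.20 without WT replicate 1 (edgeR adjusted p = 0.000497). The mitotic cyclin CCNB2 was at 0.255 ± 0.0336 against 9.56 ± 7.56 CPM and TOP2A, the topoisomerase of dividing cells, at 2.85 ± 0.157 against 38.7 ± 33.7 CPM (means ± SD, n = 4 per group, as in all such pairs below, KO first). PCNA, the sliding clamp of DNA replication and repair, did not pass, at 17.5 ± 1.64 against 18.9 ± 3.78 CPM (-0.11 on the log2 scale, edgeR adjusted p = 0.712). Replication-dependent histone genes, which are transcribed in S phase, showed the same direction, with 19 of 46 lower and 1 higher (15 and 2 without WT replicate 1, and 17 and 8 with the share of small structural RNAs as a covariate). H1-5, a linker histone, was at 3.13 ± 1.75 against 39.7 ± 24.2 CPM, and the 1 gene that was higher, H2BC3, at 2.93 ± 0.995 against 0.0817 ± 0.0584 CPM. Histone genes are near-identical copies whose reads may be shared out between them, so single members are uncertain.

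Among progenitor and Notch genes that passed, more were lower than higher. Of 18 neural progenitor genes 6 were lower and 2 higher (5 and 2 without WT replicate 1), with a median of -0.86. PAX6, a transcription factor of the dorsal neural tube, was at 1.55 ± 1.77 against 20.1 ± 3.68 CPM, GLI3, a hedgehog-pathway factor, at 3.95 ± 1.35 against 34.6 ± 6.74 CPM, and SOX2, the stem and progenitor factor, at 3.16 ± 1.00 against 12.3 ± 4.53 CPM. The progenitor intermediate filament VIM did not pass, at 212 ± 78.7 against 404 ± 71.4 CPM (edgeR adjusted p = 0.117). Of 21 Notch genes 8 were lower and 2 higher (10 and 2 without WT replicate 1), with a median of -1.20, while the list's summed level overlapped between the groups (499.5 to 1014 CPM in KO, 682 to 1203 CPM in WT). The receptor NOTCH2 was counted at 1.03, 1.21, 1.72 and 1.59 CPM in KO and 61.0, 79.8, 39.1 and 47.3 CPM in WT. No KO library came near a WT library, and the log2 fold change was -5.34 (SE 0.30, edgeR adjusted p = 2.53e-07; -5.30 without WT replicate 1). HET neurons held 4.93 ± 1.19 CPM, and KO was lower than HET too (-1.81 on the log2 scale, edgeR adjusted p = 0.00421). The receptor NOTCH3 (1.55 ± 0.295 against 19.9 ± 5.48 CPM), the Notch target HEYL (1.07 ± 0.472 against 26.2 ± 6.30 CPM) and MFNG, a glycosyltransferase that tunes ligand binding (24.3 ± 18.4 against 206 ± 31.3 CPM), were lower, whereas the coactivator MAML3 did not pass (179 ± 28.2 against 176 ± 46.8 CPM, edgeR adjusted p = 0.926). The non-canonical ligand DLK1 was one of the genes that rose, to 318 ± 146 from 62.8 ± 39.1 CPM.

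Proneural factors went both ways at day 7, with 6 of 20 higher and 8 lower (6 and 7 without WT replicate 1). NEUROD1, the factor that follows NGN2 in the cascade, was counted at 13.9, 10.1, 5.53 and 17.5 CPM in KO and at 517, 386, 375 and 407 CPM in WT. The groups were far apart, and in proportion to the group mean the KO libraries varied more than the WT libraries. Its log2 fold change was -5.18 (SE 0.58, edgeR adjusted p = 6.82e-05; -5.07 without WT replicate 1), and HET neurons lay between at 101 ± 61.5 CPM. Other early factors were lower too, NEUROD4 at 19.8 ± 8.63 against 152 ± 69.4 CPM and NEUROG1 at 3.81 ± 2.701 against 39.0 ± 15.8 CPM. NEUROG2, whose counts may include the transgene, was at 22.8 ± 4.96 against 58.9 ± 19.1 CPM (-1.38 on the log2 scale, edgeR adjusted p = 0.000925). Other factors were higher. MYT1L, a repressor of non-neuronal genes in neurons, stood at 75.2, 58.8, 79.5 and 61.7 CPM in KO and at 0.919, 8.16, 4.89 and 7.26 CPM in WT. Every KO library lay far above the highest WT library, and the log2 fold change was 3.70 (SE 0.53, edgeR adjusted p = 0.000338). ONECUT2 (1906 ± 66.3 against 612 ± 162 CPM) and the helix-loop-helix factor NHLH2 (339.8 ± 64.0 against 93.7 ± 50.1 CPM) were higher.

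The day-7 pattern of these factors differed from that of day 3. At day 3, 17 of 20 proneural and early neuronal factors were higher in KO and 1 was lower, with a median of 2.48. NEUROD1 was then higher in KO, at 89.4 against 22.2 CPM (2.01 on the log2 scale, edgeR adjusted p = 0.000987), so its KO against WT difference moved by -7.21 on the log2 scale by day 7 (test of the change over all 36 libraries, edgeR adjusted p = 1.15e-08). NEUROG2 had a smaller mean in KO already at day 3, at 8683 against 22180 CPM, and at day 0, before induction, at 2.02 against 23.0 CPM. Whether induction differed between the lines, and what part that had in the results, was not tested. Over all genes, 4588 of 24764 (18.5%) changed their KO against WT difference between the days, 1881 (7.6%) upward and 2707 (10.9%) downward. Of the proneural list 0 changed upward and 14 downward of 20, of the Notch list 1 and 13 of 21, and of the proliferation list 2 and 12 of 20. For pan-neuronal genes it was 0 and 9 of 20, for presynaptic genes 5 and 8 of 29, and for postsynaptic genes 10 and 3 of 27. Neuronal lists had more higher than lower genes already at day 3. Presynaptic genes had 22 higher and 1 lower, postsynaptic genes 11 and 1, sodium and calcium channels 14 and 1, and potassium channels 18 and 0. The comparisons of day 3 and day 7 use separate libraries, but the lines are the same.

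**Figure D2:**
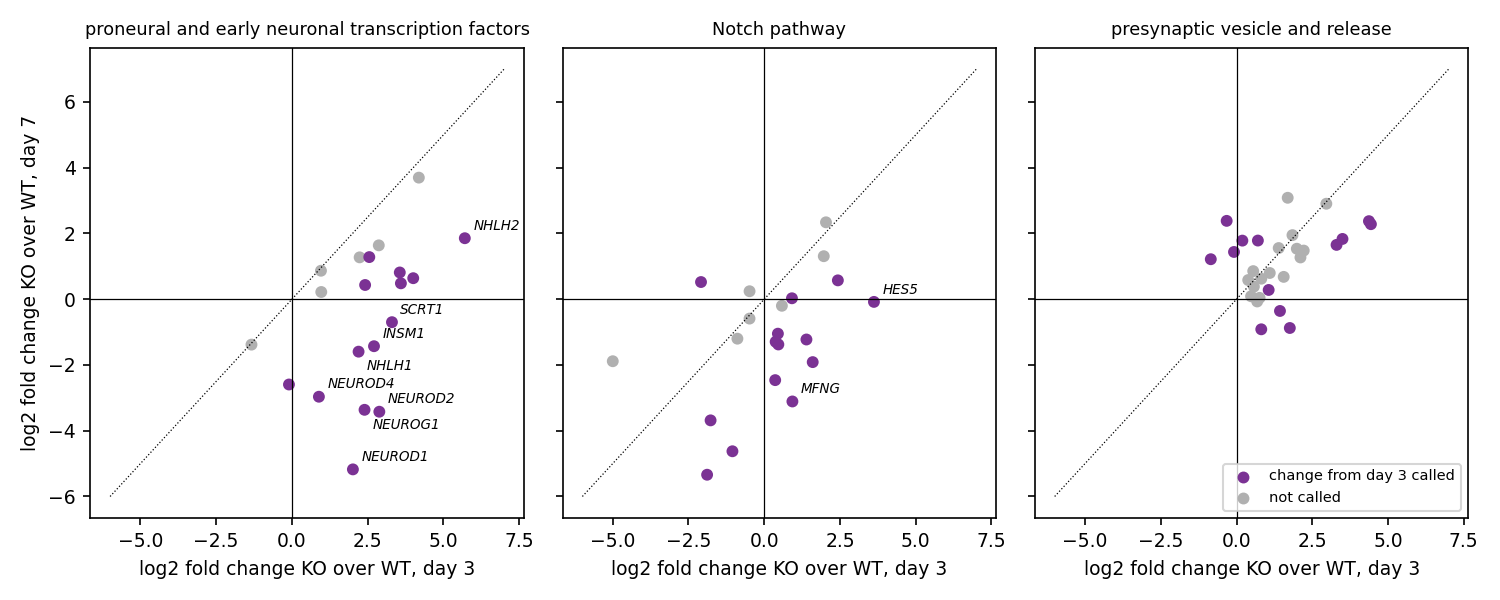
Log2 fold change of KO over WT at day 3 (horizontal axis) and at day 7 (vertical axis) for the tested genes of 3 lists, 1 point per gene, purple where the change between the days passed the edgeR test, with a dotted line of equal values. NEUROD1 sits at 2.01 at day 3 and -5.18 at day 7, and most proneural and Notch points lie below the line, while presynaptic points lie on both sides of it.

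Structural genes of neurons were mostly higher in KO. Of 20 pan-neuronal genes 12 were higher and 2 lower (10 and 2 without WT replicate 1), with a median of 0.84; at day 3 it had been 18 and 0. MAP1B, a microtubule-associated protein of growing axons, was read at 11390, 11370, 12500 and 8522 CPM in KO and 2452, 6507, 4304 and 6216 CPM in WT. The groups did not overlap, with WT replicate 2 and KO replicate 4 closest to each other, and the log2 fold change was 1.17 (SE 0.34, edgeR adjusted p = 0.0184, 0.037 without WT replicate 1). The neurofilament subunits NEFL (4553 ± 1167 against 1433 ± 294 CPM) and NEFM (2725 ± 364 against 791 ± 312 CPM), the dendritic MAP2 (1621 ± 124 against 388 ± 170.4 CPM) and the axonal tau gene MAPT (502 ± 94.3 against 144 ± 49.4 CPM) were higher. DCX, a microtubule protein of young neurons, passed narrowly with a log2 fold change of 0.78 (edgeR adjusted p = 0.035). Without WT replicate 1 the log2 fold change was 0.60 (edgeR adjusted p = 0.0725), and the call was lost as well without WT replicate 3 or any one of KO replicates 1 to 3 (edgeR adjusted p from 0.0653 to 0.0867). The neuronal tubulin TUBB3 did not pass, at 2812 ± 201 against 3432 ± 992 CPM (edgeR adjusted p = 0.516).

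On both sides of the synapse more genes were higher than lower. Of 29 presynaptic genes 19 were higher and 2 lower (median 1.27; 19 and 1 without WT replicate 1), and of 27 postsynaptic genes 17 were higher and 1 lower (median 1.02; 15 and 1 without it). All 4 KO libraries lay above all 4 WT libraries for 21 of the presynaptic and 19 of the postsynaptic genes, where 39.4% of all genes had groups that did not overlap in either direction. SYN3, a synapsin that tethers vesicles, was at 107, 137, 203 and 144 CPM in KO and 3.43, 29.9, 21.8 and 14.8 CPM in WT. All KO libraries lay above all WT libraries (3.09 on the log2 scale, SE 0.50, edgeR adjusted p = 0.000682, 0.000252 without WT replicate 1). SV2C, a vesicle protein (18.1 ± 12.2 against 2.41 ± 1.33 CPM), NLGN3, a postsynaptic partner of neurexins (35.2 ± 9.41 against 4.19 ± 1.82 CPM), and CAMK2A, a kinase of excitatory synapses (28.1 ± 7.61 against 4.17 ± 1.29 CPM), were among the higher genes with the largest folds. The vesicle protein SYP (232 ± 9.48 against 223 ± 40.0 CPM, edgeR adjusted p = 0.917) and the scaffold DLG4 (354 ± 39.8 against 254 ± 30.0 CPM, edgeR adjusted p = 0.221) did not pass. The release genes STX1A (-0.92 on the log2 scale) and CPLX1 (-0.88) and the scaffold HOMER3 (-2.08) were lower.

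Many genes of transmitter receptors were higher. Of 23 glutamate receptor genes 15 were higher and 3 lower (median 1.97), and these counts were 15 and 3 without WT replicate 1. GRIK1, a kainate receptor subunit, was counted at 254, 189, 243 and 70.8 CPM in KO and at 0.474, 3.79, 3.24 and 1.77 CPM in WT. KO replicate 4 was the lowest of its group and still far above WT, and the log2 fold change was 6.35 (SE 0.95, edgeR adjusted p = 0.000433). At day 3 both genotypes had held under 1 CPM of it (0.491 in KO, 0.382 in WT), and HET neurons of day 7 held 30.6 ± 34.0 CPM. GRIK1 overlaps BACH1, and reads of overlapping genes cannot be told apart without strand. The AMPA receptor subunit GRIA4 (67.1 ± 9.07 against 5.09 ± 2.23 CPM) and the NMDA receptor subunits GRIN1 (9.61 ± 2.82 against 0.905 ± 0.424 CPM) and GRIN2A (8.19 ± 4.84 against 1.17 ± 0.952 CPM) were higher, while GRIN2D, an NMDA subunit of young neurons (62.2 ± 11.23 against 211 ± 27.0 CPM), and the metabotropic receptor GRM4 (24.9 ± 4.20 against 135 ± 16.8 CPM) were lower. Of 22 GABA, glycine and acetylcholine receptor genes 16 were higher and 2 lower (median 1.97, or 1.67 with genes that sat at the detection floor set to their bound; 12 and 3 without WT replicate 1). GABRA3, a GABA-A subunit, was at 30.4 ± 13.1 against 1.202 ± 0.779 CPM and GLRA2, an embryonic glycine receptor subunit, at 42.0 ± 10.5 against 3.90 ± 2.77 CPM.

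Transporters of glutamate, the main excitatory transmitter, were expressed in both genotypes. SLC17A6, the vesicular glutamate transporter VGLUT2, stood at 328, 353, 323 and 263 CPM in KO and 34.2, 78.0, 71.0 and 84.5 CPM in WT. All KO libraries lay above all WT libraries (2.24 on the log2 scale, SE 0.41, edgeR adjusted p = 0.00133). Its relative SLC17A7, VGLUT1, did not pass, at 118 ± 3.38 against 171 ± 19.4 CPM (edgeR adjusted p = 0.125). GAD2, an enzyme of GABA synthesis, was higher at a low level, 7.14 ± 3.75 against 0.933 ± 0.767 CPM, and SLC5A7, the choline transporter, passed with WT replicate 1 (edgeR adjusted p = 0.0281) and not without it (edgeR adjusted p = 0.0543). Of the 20 tested genes of transmitter synthesis and transport 7 were higher and 1 lower (5 and 1 without WT replicate 1).

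Ion channel genes were higher more often than lower. Of 24 voltage-gated sodium and calcium channel genes 14 were higher and 3 lower (median 1.40; 13 and 3 without WT replicate 1), and of 30 potassium channel genes 19 were higher and 3 lower (median 1.12; 17 and 2 without it). SCN2A, a sodium channel of the axon initial segment, was at 55.3, 45.5, 54.0 and 23.3 CPM in KO and 0.334, 2.48, 1.41 and 1.42 CPM in WT. WT replicate 1 was the lowest library and KO replicate 4 the lowest KO library, with a wide gap between the groups (4.99 on the log2 scale, SE 0.82, edgeR adjusted p = 0.000753, 0.00242 without WT replicate 1). The gene overlaps SCN3A in the annotation. SCN9A, a sodium channel of sensory neurons (115 ± 17.4 against 7.20 ± 4.49 CPM), CACNA1E, an R-type calcium channel (119 ± 23.9 against 8.16 ± 4.00 CPM), the leak channel KCNK9 (17.1 ± 6.14 against 0.841 ± 0.539 CPM), the calcium-activated KCNMA1 (40.2 ± 5.40 against 2.81 ± 1.59 CPM) and the M-current channel KCNQ3 (91.5 ± 18.7 against 14.2 ± 7.53 CPM) were higher. The T-type calcium channel CACNA1H did not pass (-0.29 on the log2 scale, edgeR adjusted p = 0.275).

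**Figure D3:**
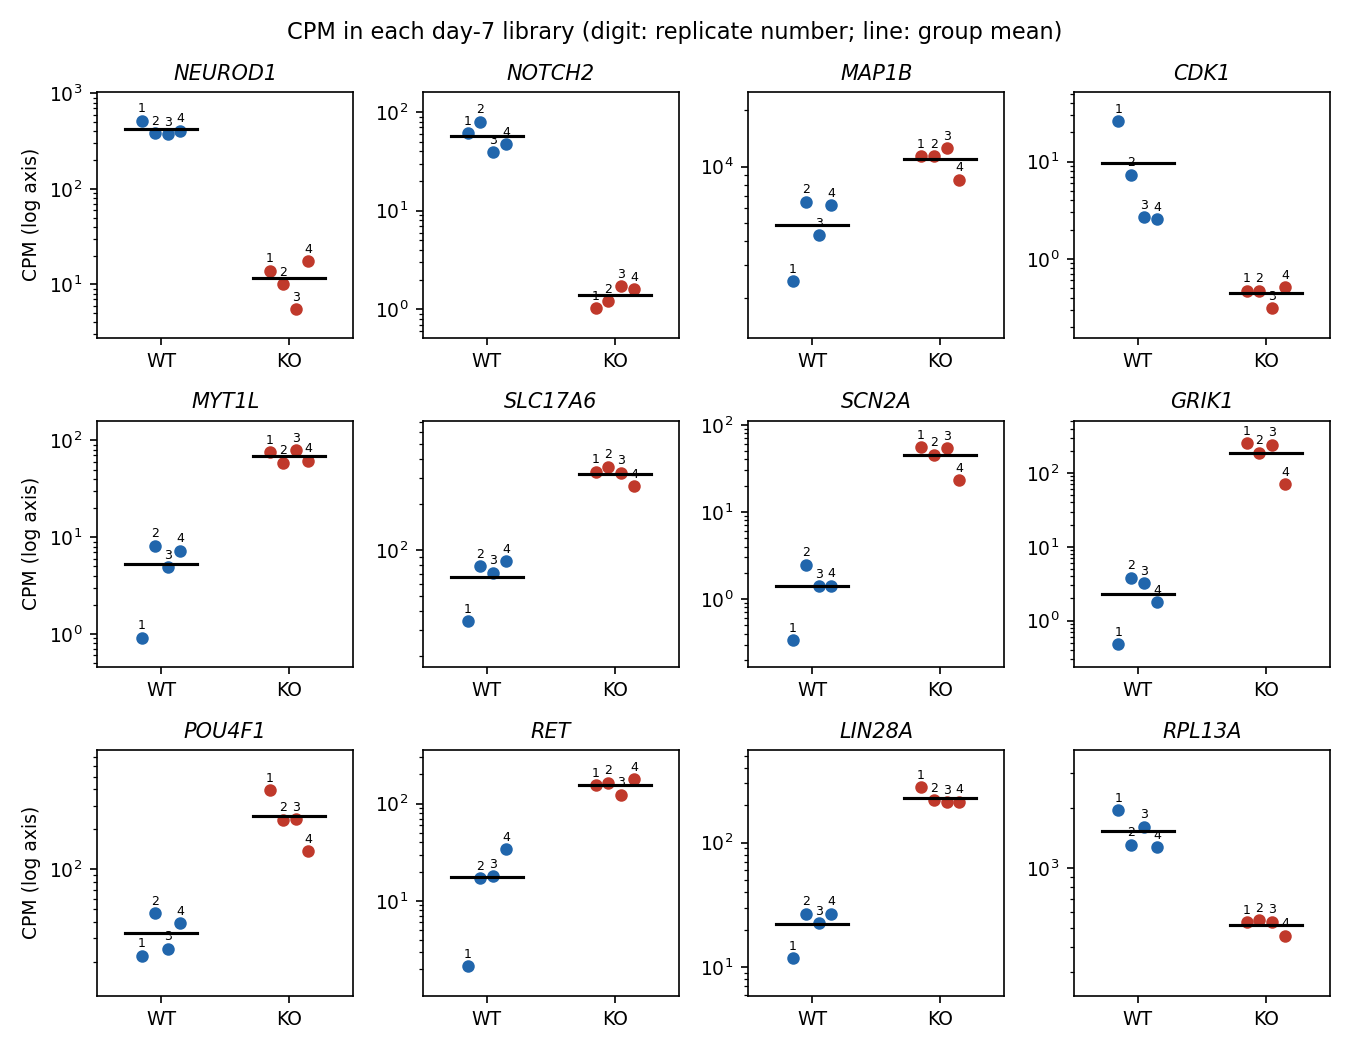
CPM of 12 genes in each day-7 library (vertical log axis, which does not start at 0), blue for WT and red for KO, with the replicate number at each point and a line at the group mean. In each of the 12 panels the 4 KO points and the 4 WT points do not overlap. WT replicate 1 is the WT point farthest from KO in every panel except that of NOTCH2.

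Genes by which axons find their path and genes of neuropeptides were higher more often than lower. Of 39 guidance genes 19 were higher and 5 lower (median 0.80; 18 and 5 without WT replicate 1). The secreted semaphorin SEMA3E was at 44.0, 16.5, 35.3 and 4.51 CPM in KO and at 0, 0.199, 0.124 and 0.230 CPM in WT. The KO libraries themselves were widely spread, but all were above WT (7.43 on the log2 scale, edgeR adjusted p = 0.000701). The semaphorin receptors PLXNA4 (135 ± 61.0 against 11.3 ± 3.66 CPM) and PLXNC1 (35.1 ± 5.62 against 3.39 ± 1.41 CPM) were higher. Of 18 neuropeptide genes 10 were higher and 1 lower (9 and 1 without WT replicate 1). PENK, the precursor of enkephalin opioid peptides, was read at 161, 109.7, 185 and 263 CPM in KO and had no count in any WT library. Against a floor of 3 counts per library this was at least 2434-fold higher, and HET neurons held 0.00716 CPM. PENK was picked for its KO and WT values, so its difference from HET is given without a test. KO cells had held 0.192 CPM at day 3. TAC1, the precursor of substance P (11.5 ± 4.53 against 0.271 ± 0.0653 CPM), VGF, a secreted granule protein (72.9 ± 15.3 against 5.92 ± 2.57 CPM), and PCSK1, a convertase that cuts peptide precursors (39.7 ± 22.5 against 3.75 ± 1.54 CPM), were higher. Somatostatin, encoded by SST, was at 545 ± 270.0 against 494 ± 289.6 CPM and did not pass (edgeR adjusted p = 0.857).

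Factors that specify neuron types were split. Of 19 sensory and peripheral identity genes 7 were higher and 6 lower (6 and 5 without WT replicate 1), with a median of 0.11; at day 3, 9 were higher and 1 lower. POU4F1, the sensory neuron factor BRN3A, stood at 397, 236, 238 and 137 CPM in KO and 22.2, 46.7, 25.1 and 39.0 CPM in WT. Its KO libraries were spread, all above every WT library (2.94 on the log2 scale, SE 0.40, edgeR adjusted p = 0.00025). RET, the signalling receptor for GDNF, which was in the medium, was at 155, 165, 124 and 179 CPM in KO and 2.12, 17.2, 17.9 and 34.2 CPM in WT. WT replicate 1 stood lowest by a wide margin, and the difference was 3.11 on the log2 scale with it (SE 0.72, edgeR adjusted p = 0.00591) and 2.73 without it (edgeR adjusted p = 0.00675). The transcriptional cofactor EYA2 was lower at 11.25 ± 2.04 against 63.6 ± 8.32 CPM, and the nociceptor factor DRGX was higher at 14.6 ± 5.97 against 1.24 ± 0.335 CPM. Of 22 forebrain and cortical genes 2 were higher and 10 lower (2 and 8 without WT replicate 1). The nuclear factors NFIA (15.6 ± 7.40 against 70.3 ± 30.4 CPM) and NFIB (0.348 ± 0.257 against 9.08 ± 3.19 CPM) and the cortical repressor BCL11A (2.11 ± 1.34 against 16.6 ± 9.41 CPM) were lower. The cortical factor NEUROD6 reached at most 1 count in any of the 8 libraries, so the labelled neurons did not carry this marker in either genotype. Of 13 tested HOX genes 4 passed, all higher, and 2 without WT replicate 1, but their median of 0.92 turned to -0.40 without KO replicate 1.

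Regulators of the neuronal RNA and chromatin switch moved in both directions. PTBP1, the splicing repressor that neurons lose, was lower at 45.3 ± 6.54 against 112 ± 14.5 CPM, REST, the repressor of neuronal genes, was lower at 3.13 ± 0.453 against 11.9 ± 4.67 CPM, and the neuronal splicing factors RBFOX1 (56.3 ± 35.8 against 10.0 ± 2.22 CPM) and CELF4 (104 ± 18.96 against 21.7 ± 7.86 CPM) were higher. Of the 25 genes of this list 8 were higher and 5 lower (8 and 4 without WT replicate 1). Of 19 subunits of the BAF chromatin-remodelling complex 7 were higher and 0 were lower (7 and 1 without it), among the higher ones the alternative ATPase SMARCA2 (51.5 ± 10.3 against 13.9 ± 3.16 CPM) and the neuronal subunit DPF1 (18.1 ± 4.74 against 4.99 ± 1.70 CPM).

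Genes of the translation machinery were lower in KO. Of 47 cytosolic ribosomal protein genes 44 were lower and none was higher, with a median of -1.21; without WT replicate 1, 35 were lower. With the share of small structural RNAs as a covariate 36 were lower, and with limma on log2(TPM + 1) 1 was, with a median of -0.64. For all 47 the 4 KO libraries lay below the 4 WT libraries. Their summed level ran from 11360 to 13690 CPM in KO and from 24840 to 36050 CPM in WT, and WT replicate 1 was the highest WT library for 39 of them. RPL13A, a large-subunit protein, was at 534, 548, 539 and 458 CPM in KO and at 1961, 1315, 1619 and 1273 CPM in WT. The KO values were nearly constant in replicates 1 to 3 (-1.58 on the log2 scale, SE 0.44, edgeR adjusted p = 0.0156, 0.0404 without WT replicate 1; -0.81 on the log2 scale with the covariate). The acidic stalk protein RPLP0 was at 519.8 ± 71.5 against 1493 ± 218 CPM, and RPS19, a small-subunit protein, at 250.3 ± 16.4 against 943 ± 122 CPM. The elongation factor EEF1A1 was counted at 6305, 6008, 5702 and 4919 CPM in KO and 13980, 11290, 12640 and 9489 CPM in WT. It fell by a smaller factor with no overlap (-1.06 on the log2 scale, SE 0.22, edgeR adjusted p = 0.00276), as did EEF2 (2023 ± 289 against 3628 ± 149 CPM). At day 3 none of the 47 had passed in either direction, with a median of -0.67, and 1 changed its difference between the days, downward. Ribosomal protein genes have many processed pseudogene copies that can take up their reads, and of 1057 tested processed pseudogenes of all kinds 20.3% were lower and 3.97% higher in KO. The mean share of small structural RNAs was lower in KO too, and its part in the result was not tested; with that share as a covariate 5460 genes passed in all.

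Transcripts of ribosomal proteins and elongation factors are known for a terminal oligopyrimidine start, a C followed by a run of pyrimidines, through which growth signals set their translation. The starts of genes described here are shown to place that feature: each line holds the 15 bases before and 15 bases from the RefSeq start (GRCh38.p14), gene strand, with the first 5 transcribed bases in capitals. This feature was chosen after the values were seen.
RPL13A: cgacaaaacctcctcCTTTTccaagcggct
RPLP0: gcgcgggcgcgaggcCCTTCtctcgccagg
EEF1A1: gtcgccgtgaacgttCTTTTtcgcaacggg
EEF2: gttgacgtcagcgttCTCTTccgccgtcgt
TMSB4X: cgcaccccgcccgacAACTCggtggtggcc
MAP1B: atcctttctcctgccGCAGTggagaggagc
DCX: tcagacaacaaaggcATAGAgagattggtt
The windows lie at chr19:49487593-49487622 (plus strand) for RPL13A, chr12:120201097-120201126 (minus) for RPLP0, chr6:73521018-73521047 (minus) for EEF1A1, chr19:3985449-3985478 (minus) for EEF2, chrX:12975095-12975124 (plus) for TMSB4X, chr5:72107460-72107489 (plus) for MAP1B and chrX:111412178-111412207 (minus) for DCX. A start of C followed by 4 bases of C or T was read in the first 4 genes and not in the last 3. TMSB4X, an actin-sequestering peptide that was lower in KO (795 ± 169 against 1953 ± 345 CPM), lacked it, as did MAP1B and DCX. Such a start stood in 4.0% of all 27305 promoters in the table, in 5.1% of the 13165 tested genes that matched an entry, and in 23 of the 36 ribosomal protein genes that matched. Of the 668 tested genes with it 27.1% were lower and 14.5% higher in KO. Without ribosomal protein genes, here including some outside the list used above, 624 were left, of which 22.8% were lower and 15.5% higher. Of the 12497 genes with another start 15% were lower and 19.6% higher. A match of these letters is a description of the sequence, and translation was not measured.

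**Figure D4:**
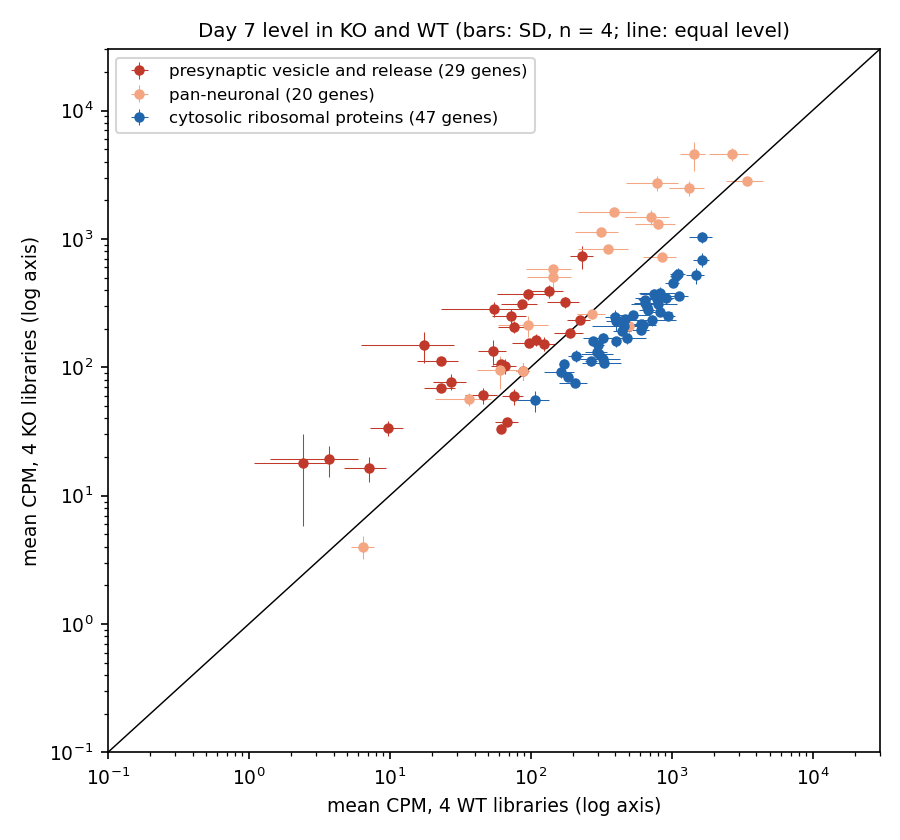
Mean CPM at day 7 in KO (vertical log axis) against WT (horizontal log axis), with SD bars over 4 libraries, for 47 cytosolic ribosomal protein, 29 presynaptic and 20 pan-neuronal genes; the line marks equal level. All 47 ribosomal protein points lie below the line, and 21 of the presynaptic genes have all KO libraries above all WT libraries.

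About 1 in 2 of the genes of cholesterol synthesis and glycolysis passed, nearly all of them higher. Of 24 cholesterol synthesis genes 11 were higher and 1 lower (11 and 1 without WT replicate 1), and 11 had changed upward since day 3. HMGCS1 (923 ± 178 against 213 ± 37.6 CPM), an early enzyme of the pathway, was higher, and the regulator SREBF2 did not pass (0.32 on the log2 scale, edgeR adjusted p = 0.28). Of 19 glycolysis genes 10 were higher and none was lower (7 higher without WT replicate 1). Hexokinase HK2 was at 107 ± 41.0 against 13.9 ± 4.29 CPM and lactate dehydrogenase LDHA at 654 ± 252 against 134 ± 46.2 CPM, while GAPDH did not pass (0.47 on the log2 scale, edgeR adjusted p = 0.199). Of 20 p53 targets 6 were lower and 1 higher, but without WT replicate 1 3 were lower and 0 higher. The pro-apoptotic PMAIP1 was at 0.765 ± 0.400 against 10.9 ± 8.45 CPM, and the division inhibitor CDKN1A passed with WT replicate 1 (edgeR adjusted p = 0.0302) and not without it (edgeR adjusted p = 0.0936). Of 19 genes of protein and amino acid stress 4 were higher and 2 lower (1 and 2 without WT replicate 1), of 24 circadian genes 4 and 4 (5 and 3), and of 16 immediate early genes 2 and 4 (2 and 3), shares near the background.

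A separate set of genes was silent in 1 genotype. In 33 genes every WT library held at most 3 counts and every KO library at least 1 CPM, and in 16 genes the reverse held. Of the 33, 8 lay on the X chromosome, 26 had at most 3 counts in every WT library of days 0 and 3 as well, and 20 were expressed in all KO libraries of day 0, before induction. In HET neurons 15 of the 33 were expressed in all libraries and 7 were silent in all.

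Of the 33, 5 lay between 55 and 57 Mb of the X chromosome, a window chosen after the values were seen. MAGEH1 (chrX:55452105-55453566), a MAGE family gene, was at 47.5, 42.1, 39.7 and 40.8 CPM in KO and 0 in all 4 WT libraries, at least 577-fold higher, with 42.7 ± 14.7 CPM in HET. RRAGB (chrX:55717739-55758774), a GTPase that brings mTORC1 to lysosomes, was at 23.6, 29.5, 25.3 and 23.1 CPM in KO and 0 in WT (at least 344-fold), with 23.7 ± 10.5 CPM in HET. Both genes were already on in KO stem cells, at 14.3 and 4.78 CPM. KLF8, a zinc finger factor (12.6 ± 2.02 CPM, at least 171-fold), and USP51, a deubiquitinase (6.70 ± 0.868 CPM, at least 90.9-fold), showed the same pattern. Elsewhere in the window, UBQLN2 (chrX:56563639-56567868) was expressed in both genotypes and was higher by 0.96 on the log2 scale (edgeR adjusted p = 0.00148). SPIN3 (0.88, edgeR adjusted p = 0.00205) and FAM104B (0.81, edgeR adjusted p = 0.0401) were higher too. So was the pseudogene GOT2P6, at a mean of 0.439 CPM in KO and 0 in WT. NBDY (0.39, edgeR adjusted p = 0.0807), APEX2 (-0.48, 0.0619) and UQCRBP1 (-0.95, 0.301) did not pass. Farther along the X, MAGEE1 (chrX:76427724-76431353) was at 37.1, 35.8, 38.9 and 31.0 CPM in KO and 0 in WT (at least 485-fold), but HET neurons held 0.00630 CPM. MAGEE1 too was picked for its KO and WT values, so its difference from HET is given without a test. Over the whole X chromosome 30.0% of 697 tested genes were higher and 11.5% lower, against 16.8% and 15.8% of 19731 autosomal genes.

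Other genes silent in WT included PUS7L (chr12:43718993-43758817), a pseudouridine synthase, at 23.1, 20.6, 16.2 and 19.9 CPM in KO and 0 in WT (at least 270.2-fold). CRYZ (chr1:74705482-74733408), a quinone oxidoreductase whose neighbour TYW3 overlaps it, was at 7.31 ± 2.46 CPM in KO (at least 99.2-fold). UNC13C, a presynaptic priming factor, was at 12 ± 4.30 CPM in KO and 0 in WT and HET neurons (at least 163-fold). The POU factor POU3F4 was at 5.71 ± 3.21 CPM in KO and 0 in WT (at least 77.5-fold). In the other direction NLRP2, a maternal-effect gene of the early embryo, had no count in any KO library and stood at 17.8, 26.1, 23.8 and 34.3 CPM in WT, at least 334-fold lower in KO. HET neurons kept it at 29.2 ± 7.64 CPM, and KO stem cells of day 0 already lacked it (0.00921 CPM against 104 CPM in WT). KLHL40 (chr3:42685519-42692544), a muscle protein stabilizer, was at 0.0470, 0, 0 and 0.0601 CPM in KO and 34.9, 30.0, 15.7 and 8.97 CPM in WT, at least 293-fold lower, and the muscle calcium pump ATP2A1 was at 0.554 ± 0.221 against 52.0 ± 33.0 CPM. The histone gene H3C8 was also silent in KO at day 7 (0.0706, 0.0450, 0 and 0 CPM against 28.8, 7.07, 2.40 and 7.28 CPM). Unlike NLRP2, both KLHL40 and H3C8 were low in HET neurons too, at 0.557 and 0.409 CPM. KO cells had held 5.01 CPM of KLHL40 at day 3. They had held 140 CPM of H3C8 at day 0 and 118 CPM at day 3.

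**Figure D5:**
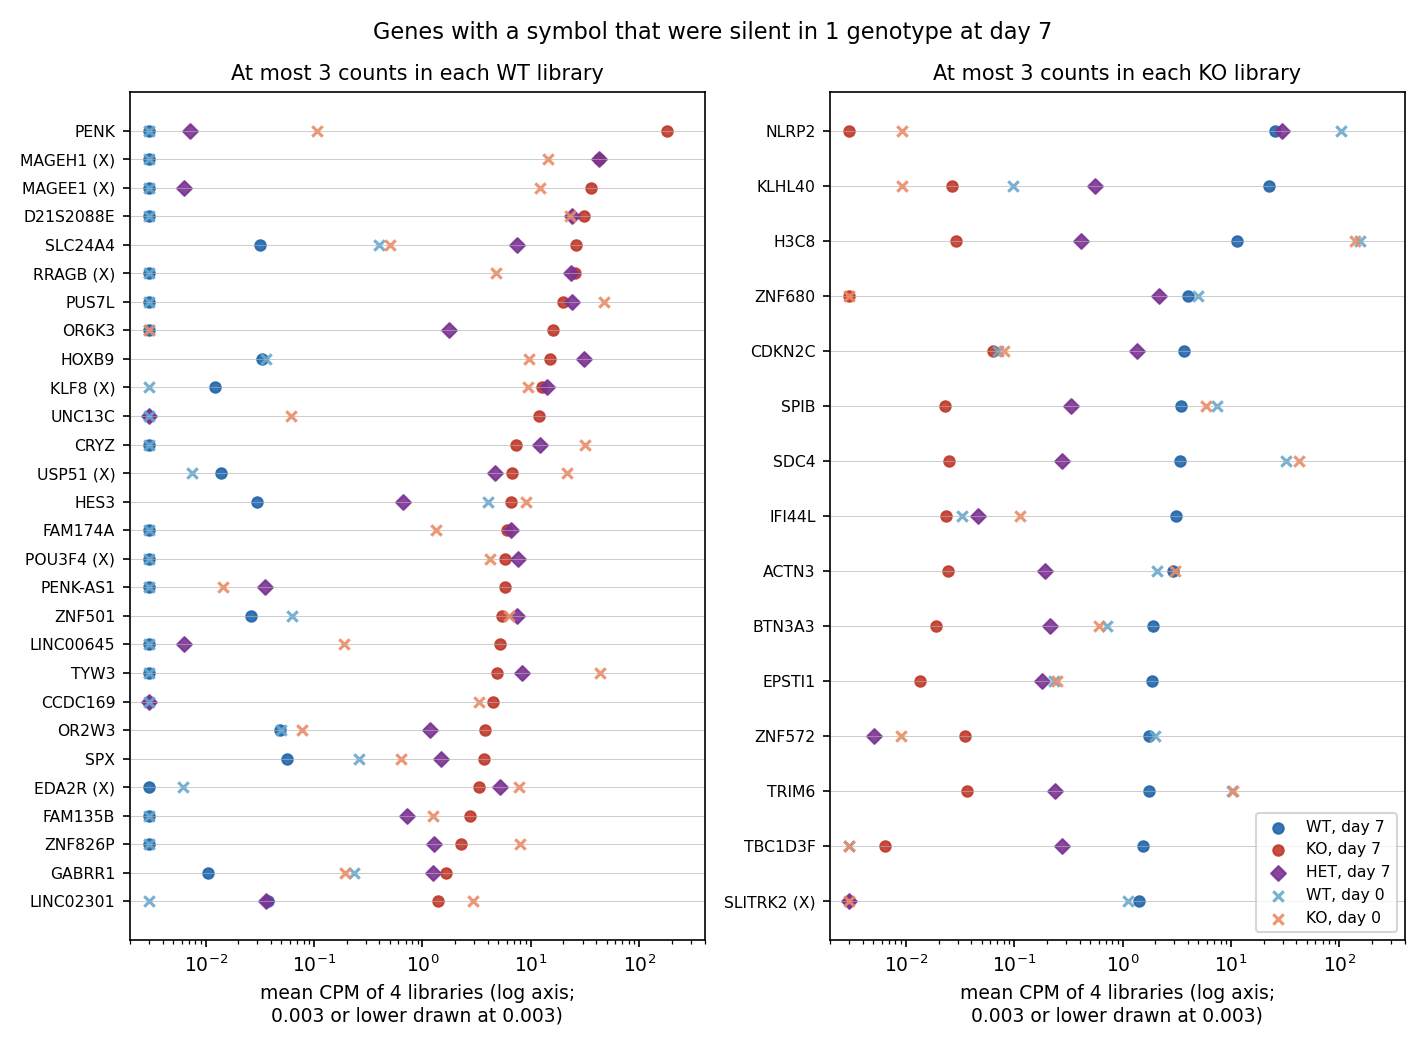
Mean CPM of 4 libraries (horizontal log axis, values of 0.003 or lower drawn at 0.003) of the genes with a symbol that held at most 3 counts in every WT (left) or every KO (right) library of day 7, with circles for WT and KO, diamonds for HET and crosses for day 0; X marks genes on that chromosome. MAGEH1 and RRAGB show the KO circle and the HET diamond together, while PENK and MAGEE1 show HET near 0.

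The 250 bases before the first RefSeq start of such genes (GRCh38.p14, gene strand) are shown with CpG, the pair of letters that DNA methylation acts on, in capitals, since silent and active promoters often differ in it; no methylation was measured. RRAGB, KLF8, MAGEE1 and CRYZ were expressed in KO and silent in WT, and KLHL40 the reverse.
RRAGB: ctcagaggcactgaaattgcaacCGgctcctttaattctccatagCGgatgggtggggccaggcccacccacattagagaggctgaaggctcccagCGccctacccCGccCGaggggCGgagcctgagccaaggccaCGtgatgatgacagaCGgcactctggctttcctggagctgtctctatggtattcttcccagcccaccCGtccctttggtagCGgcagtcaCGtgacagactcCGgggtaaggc
KLF8: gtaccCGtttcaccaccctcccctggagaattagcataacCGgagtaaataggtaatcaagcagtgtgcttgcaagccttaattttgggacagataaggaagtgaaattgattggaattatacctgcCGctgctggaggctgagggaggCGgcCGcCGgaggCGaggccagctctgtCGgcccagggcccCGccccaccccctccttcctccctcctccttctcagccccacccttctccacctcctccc
MAGEE1: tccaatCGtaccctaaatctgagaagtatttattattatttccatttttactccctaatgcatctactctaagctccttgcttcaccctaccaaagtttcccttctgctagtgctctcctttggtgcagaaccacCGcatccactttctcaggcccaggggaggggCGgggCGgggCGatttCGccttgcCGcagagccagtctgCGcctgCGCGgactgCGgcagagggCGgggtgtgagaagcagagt
CRYZ: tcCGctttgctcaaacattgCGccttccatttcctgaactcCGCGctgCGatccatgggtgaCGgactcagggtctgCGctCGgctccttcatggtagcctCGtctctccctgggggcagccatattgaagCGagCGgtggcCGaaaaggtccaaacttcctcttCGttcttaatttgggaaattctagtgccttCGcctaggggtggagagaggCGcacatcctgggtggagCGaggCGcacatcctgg
KLHL40: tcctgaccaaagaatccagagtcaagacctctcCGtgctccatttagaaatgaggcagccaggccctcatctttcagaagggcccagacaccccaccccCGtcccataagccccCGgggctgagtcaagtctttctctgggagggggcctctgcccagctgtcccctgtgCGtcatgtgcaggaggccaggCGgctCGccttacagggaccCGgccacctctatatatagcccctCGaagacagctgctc
They lie at chrX:55717499-55717748 (plus strand, RRAGB), chrX:56232106-56232355 (plus, KLF8), chrX:76427460-76427709 (plus, MAGEE1), chr1:74733051-74733300 (minus, CRYZ) and chr3:42685287-42685536 (plus, KLHL40). RefSeq and GENCODE starts can differ. The CRYZ window lies wholly inside the gene span given above and reaches into TYW3 (chr1:74733152-74766678), so it may not be sequence upstream of CRYZ. Those of RRAGB and KLHL40 end inside their gene spans. The windows held 12 CpG in RRAGB, 9 in KLF8, 12 in MAGEE1, 17 in CRYZ and 8 in KLHL40, which is 0.51, 0.43, 0.65, 0.81 and 0.36 of the number that their C and G content gives by chance. A ratio of at least 0.6 was found for 47.4% of all promoters in the table and 74.8% of tested genes with an entry, for 8 of the 16 genes silent in WT that had one and for 4 of the 13 silent in KO. The proneural E-box CAGATG or its reverse CATCTG was in none of those 16 windows, too few to read the absence as a difference. It was in 12.2% of all promoters and 8.7% of tested genes with an entry. Shares near the latter were found in the genes higher in KO (8.5%) and in those lower (9.3%). MAGEH1, PUS7L and USP51 are named without a sequence.

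Among the tested MAGE family, imprinted and clustered protocadherin genes, more were higher than lower. Imprinted and clustered protocadherin genes are known for control by DNA methylation, which was not measured here. Of 25 listed MAGE genes 11 could be tested. The listed MAGEA, MAGEB and MAGEC genes could not, with at most 6 counts in any of the 8 libraries. Of the 11 tested, 7 were higher and none was lower, and 7 were higher without WT replicate 1. MAGED1, which is expressed in most cells, was at 456 ± 57.8 against 242 ± 17.3 CPM and MAGEL2, an imprinted gene of the Prader-Willi region, at 34.9 ± 7.92 against 12.8 ± 3.19 CPM. Of 33 imprinted genes 15 were higher and 2 lower (15 and 2 without WT replicate 1), among them NDN (78.1 ± 10.4 against 37.5 ± 8.68 CPM) and NAP1L5 (45.9 ± 6.90 against 12.7 ± 2.08 CPM), while PEG10 did not pass (2248 ± 234 against 1376 ± 482 CPM, edgeR adjusted p = 0.0811). Of 52 clustered protocadherins, adhesion proteins that give neurons individual identities, 21 were higher and 1 lower, the same counts as without WT replicate 1. PCDHGB4 was at 24.3 ± 15.1 against 0.893 ± 0.314 CPM and PCDHGC4 at 156 ± 41.9 against 32.5 ± 9.28 CPM. Members of a protocadherin cluster share their last exons, so the counting may have moved reads between them.

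Partners of RAI1 and its chromosomal neighbours were looked at next. Of 5 genes of RAI1 and its reported partners 3 were higher and 1 was lower, and without WT replicate 1 0 and 1. TCF20, its closest relative, was at 157 ± 18.4 against 103 ± 23.8 CPM (0.60 on the log2 scale, edgeR adjusted p = 0.0261, 0.0609 without that library), PHF14 did not pass (98.0 ± 8.77 against 82.3 ± 13.2 CPM), and HMG20B, the subunit of the CoREST repressor complex, was lower with and without it (15.3 ± 4.16 against 44.0 ± 4.42 CPM; edgeR adjusted p = 0.00347 and 0.00828). Of 25 neighbours in the Smith-Magenis region 3 were higher and 4 lower (3 and 4 without WT replicate 1), a share near that of all genes. The one with the widest difference was RASD1, a small GTPase, at 4.27 ± 0.511 against 30.7 ± 11.1 CPM (-2.83 on the log2 scale, SE 0.34, edgeR adjusted p = 0.000111).

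The KO neurons were also compared with HET neurons. The KO against HET comparison passed 305 of 21714 genes (1.4%), 145 (0.668%) higher and 160 (0.737%) lower, and 245 of the 305 were among the genes that differed between KO and WT. Both comparisons use the same 4 KO libraries, so their overlap is not independent. HET libraries varied more, with a small structural RNA share from 2.84% to 27.5%, and the KO against HET count ran from 39 with limma on TPM to 1338 with the structural RNA share as a covariate; whether KO differed less from HET than from WT was not tested. Of the 52 protocadherins 8 were higher in KO than in HET, with PCDHGB4 at 4.22 on the log2 scale (edgeR adjusted p = 0.000317), and of 20 proneural genes 3 were lower. Ribosomal protein, pan-neuronal and presynaptic genes had no member that passed against HET. LDHA was higher in KO than HET (1.93 on the log2 scale, edgeR adjusted p = 0.0363).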

How the data were processed

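Libraries were made from total RNA of H9 cells after ribosomal RNA depletion and read as pairs of 151 bp, per the labels' protocols. The authors trimmed with cutadapt 4.8, aligned with STAR 2.7.8a to GRCh38 and quantified with RSEM 1.3.3, per the submitters' processing notes; the annotation and strand setting are not given in the sources used here. The deposited expected counts are estimated counts per gene (62710 genes and 4 reporters), all of them whole numbers, and the deposited TPM table served as an alternative. Symbols and positions came from GENCODE 29, which held 92.9% of the gene IDs. Groups follow the labels.

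The main test was edgeR 4.0.16 (quasi-likelihood F test, TMM, filterByExpr, Benjamini-Hochberg adjustment, threshold 0.05) on the 12 day-7 libraries, which share 1 estimate of spread; KO against HET came from the same fit, and the change from day 3 from a fit of all 36. On simulated counts of the 21714 genes the KO against WT test recovered 97% of 200 changed genes, 94% of those changed 2-fold, with 5.4% false among its calls. For the change from day 3 these values were 79.5%, 59% and 3.6%. The simulation gave every gene the same fixed spread and held no outlying library. The rates therefore hold for that setting, and those of the real libraries were not tested. For single values an exact permutation test over libraries was used, two-sided. CPM are counts-per-million of the deposited gene total, and a fold against silent libraries uses a floor of 3 counts per library, which covers counting error only. Alternatives were DESeq2 1.42.0, limma 3.58.1 on log2(TPM + 1), other scalings and filters, a replicate block, a covariate for the share of small structural RNAs and leaving out each library.

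The gene lists, the members and the genes named were chosen with earlier results of these data known. Named genes were RAI1 and its partners, the members of each list with the largest changes that passed and the most abundant one that did not, the genes with the largest differences in fold or level, and members named by role; genes of the X window and the silent set were picked after their values were seen. The labels call the replicates biological without saying what they were separated by, so p-values measure the spread between these libraries. Promoter and start sequences came from RefSeq's table for GRCh38.p14; matches were by symbol. Some genes are not reported here.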

Additional observations from a re-analysis of the deposited data

Results flagged for a closer look

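In groups of 4 libraries, 3 of 62 groups tested held a library whose distance from the nearest other exceeded Dixon's 95% critical value, and chance gives about 1 in 20, or 3.1 of 62. ZFP36L1, an RNA-binding protein that shortens mRNAs, was at 5.49 CPM in WT replicate 4 and at 19.5 to 20.9 CPM in the other WT libraries. ATP2A1 was at 101 CPM in WT replicate 1 and at 31.6 to 39.3 CPM in the others. RPL13A was at 458.0 CPM in KO replicate 4 and at 534 to 548 CPM in the other KO libraries.

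The difference between KO and WT at day 7 was not the one of day 3 in 4588 genes, by edgeR's test of the change over all 36 libraries.

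The count table also lists 4 reporter sequences. tdTomato, a red fluorescent protein, was read at a mean of 44.6 CPM in WT neurons of day 7 (SD 19.7, range 26.0 to 71.3, n = 4) and at 8.79 CPM in KO neurons (SD 2.15, range 6.37 to 10.8, n = 4; exact permutation test, two-sided p = 0.0286, the smallest that 4 against 4 allows). The counts were 933, 1884, 1394 and 3416 in WT and 271, 461, 295 and 360 in KO. The labels do not say which construct carries it. The sequences of cre, egfp and mcherry had no count in any of the 8 libraries.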

How the results depend on the processing

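The count of 7070 genes between KO and WT was 8627 on the 8 libraries alone, 8184 with DESeq2, 7094 with DESeq2's size factors, 6568 with library size alone, 6818 with no filter, 7078 without small structural RNAs and 5460 with their share as a covariate. It dropped to 1007 with limma on log2(TPM + 1), where 62.0% of calls were higher against 52.1% and the median of all genes moved to 0.18. Leaving out 1 library each gave 5220 to 7085, and without HET replicate 1, an alternative added after seeing the data, 9779. The 305 genes between KO and HET became 840 with DESeq2, 39 with limma and 1338 with the covariate, and ranged from 146 to 350 with 1 library left out, with 159, 166 and 146 without KO replicates 1, 2 and 3. Deviations from the group mean correlated at -0.03 to 0.22 between same-numbered KO and WT libraries, with 2 of 4 pairs over 0.1. Between libraries of different number the range was -0.27 to 0.18. So few correlations cannot settle whether the numbers pair the libraries. With a replicate block 7071 genes passed between KO and WT, 394 between KO and HET, and 5041 for the change from day 3. That change, 4588 genes, ranged from 3972 to 4592 with 1 library left out. The RAI1 difference was 30.07 CPM (exact permutation p = 0.0571), and on deposited TPM it was 3.33 TPM (exact permutation p = 0.0286), where limma gave an adjusted p of 0.349; without 1 library it ranged from 25.4 to 36.2 CPM. The small structural RNA share differed by -8.12 percentage points, from -10.1 without WT replicate 2 to -6.39 without WT replicate 1. The 33 genes silent in WT were 13 when 5 CPM was asked of every expressing library, and the 16 silent in KO were 2, or 4 when no count was allowed. Of 160 named genes that passed, 141 passed in every alternative on counts and 149 without WT replicate 1; no direction turned for a gene that passed. The causes of these shifts were not tested.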
